A study of Mus musculus with 12 samples.

Results

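The 10 genes described here encode the machinery of inflammatory cell lysis: the inflammasome parts Nlrp3, Aim2, Pycard, Casp1 and Casp4, the pore-forming protein Gsdmd, and the necroptosis parts Casp8, Ripk1, Ripk3 and Mlkl. They form a list given by name. Matched by gene symbol, all 10 were found among the 18050 genes of the expression table. RNA was sequenced from the left ventricle of mouse hearts 7 days after surgery. The mice of both groups were wild type and had either MI, read here as myocardial infarction, or a sham operation. Each group held 6 libraries, and the submitters' processing notes part them into replicates 1 and 2 and replicates 3 to 6. The labels give no strain, age or sex, and nothing in them ties each library to an animal of its own. A p-value here therefore reflects the variation from library to library, and that variation may be technical.

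In an inflammasome, a sensor protein gathers the adaptor ASC, encoded by Pycard, which activates caspase-1. Caspase-1 matures the cytokines interleukin 1 beta and interleukin 18 and cleaves gasdermin D, whose fragments form pores in the plasma membrane, a lytic death called pyroptosis. Necroptosis is a separate lytic death, in which RIPK1 engages RIPK3, and RIPK3 phosphorylates MLKL so that it breaches the membrane. Caspase-8 restrains this route by cleaving both kinases. Transcript levels do not show assembly, cleavage or phosphorylation, and in bulk tissue fewer cells of a type and less RNA per cell cannot be told apart.

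The promoters of 4 genes are printed because the windows differ in which inflammation-linked motifs they hold. RefSeq (GRCm38.p6) gave 12 windows of 250 bases upstream of a transcription start for 9 of the 10 genes, with no window for Gsdmd. They were searched on both strands for the NF-kB motif, by its name, for GAGGAAGT, a PU.1-like motif, for TTCNNNGAA, the STAT motif known as GAS, and for an ISRE-like interferon motif, GAAA repeated after any pair of bases. Capitals mark the NF-kB matches in Casp4 and Nlrp3 and the PU.1-like matches in Pycard and Aim2. The Casp4 window is chr9:5308599-5308848 on the plus strand, directly upstream of Casp4 and downstream of its neighbour Casp1.
Casp4: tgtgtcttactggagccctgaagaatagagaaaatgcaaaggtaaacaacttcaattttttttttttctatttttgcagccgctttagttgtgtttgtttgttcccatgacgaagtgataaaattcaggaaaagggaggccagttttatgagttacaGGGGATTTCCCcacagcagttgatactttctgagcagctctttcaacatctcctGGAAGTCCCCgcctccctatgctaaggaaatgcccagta
The Nlrp3 window is chr11:59541319-59541568 on the plus strand.
Nlrp3: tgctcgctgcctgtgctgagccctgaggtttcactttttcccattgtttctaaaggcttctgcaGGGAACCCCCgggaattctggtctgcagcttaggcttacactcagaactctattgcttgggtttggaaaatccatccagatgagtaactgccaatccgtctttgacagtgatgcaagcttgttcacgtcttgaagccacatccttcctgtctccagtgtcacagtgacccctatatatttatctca
The Pycard window is chr7:127993868-127994117 and is printed as the minus strand, on which Pycard lies. Its match is the reverse complement of GAGGAAGT.
Pycard: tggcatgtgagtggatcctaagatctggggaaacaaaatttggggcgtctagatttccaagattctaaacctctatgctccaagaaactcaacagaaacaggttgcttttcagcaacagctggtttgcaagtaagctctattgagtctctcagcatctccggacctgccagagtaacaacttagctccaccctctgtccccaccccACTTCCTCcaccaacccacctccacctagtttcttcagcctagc
The Aim2 window is chr1:173420354-173420603 on the plus strand.
Aim2: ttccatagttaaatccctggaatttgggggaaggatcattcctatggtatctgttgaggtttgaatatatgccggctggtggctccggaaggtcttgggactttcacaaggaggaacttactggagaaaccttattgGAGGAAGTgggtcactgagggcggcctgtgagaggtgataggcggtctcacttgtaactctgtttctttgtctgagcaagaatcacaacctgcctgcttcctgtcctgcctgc

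In the Casp4 window the first run of capitals holds 2 overlapping NF-kB matches, so the window counts 3. The Nlrp3 window holds 1 NF-kB match, in 1 of its 2 windows. The shares of 27025 mouse genes with such a match in a window of the same length were 7.01% for NF-kB and 2.44% for the PU.1-like motif. All shares here count only the first listed start of each gene, while the 9 genes were searched at every listed start. The matches of Nlrp3 and Ripk1 lie at a start listed second, so under the rule of the shares neither gene would count. A second start of Ripk1 had 2 GAS matches, against 7.18% of genes with at least 1, and no window of the 9 genes held the ISRE-like motif, which 3.04% of genes did. Casp1, Casp8, Ripk3 and Mlkl had no match to any of the 4 motifs in these windows. A match describes letters in the sequence and not binding.

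The libraries differed beyond the surgery in ways that touch every value below. Expected counts, the fractional read counts that RSEM estimates for each gene, summed to between 14168412 and 18602226 in the MI libraries and between 9140353 and 16066681 in the sham libraries. The common coefficient of variation between libraries was 0.192 in MI and 0.112 in sham for replicates 1 and 2, but 0.0208 in MI and 0.0293 in sham for replicates 3 to 6. In replicates 3 to 6, the gene copies Hbb-bs and Hbb-bt took 0.115% of adult beta-globin counts in MI and 99.95% in sham, where the remainder fell on Hbb-b1 and Hbb-b2. These copies are known to differ between inbred mouse strains, so surgery and the mouse stock cannot be told apart in that set. Transcripts of lung epithelium, 10 markers led by Sftpc and Sftpa1, summed to 201 to 205 CPM, counts scaled to library size, in MI and 1.31 to 2.34 CPM in sham in that set. In replicates 1 and 2 they summed to 15.5 to 28.2 CPM in MI and 0.990 to 1.11 CPM in sham. Most of that MI sum came from Napsa alone, with 817 counts over both MI libraries, and Ager had 110. Sftpc, Sftpa1, Sftpd, Cldn18 and Slc34a2 had 0 counts in both MI libraries. The part of all these markers in the results below was not tested.

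All 10 genes were higher in MI than in sham, and all 10 by at least 2-fold. A gene was called only where edgeR's quasi-likelihood F test gave a Benjamini-Hochberg adjusted p under 0.05 in both of its fits, with all 12 libraries and with replicates 3 to 6 of a group summed and counted once, 3 against 3. Of all 13592 genes tested both ways, 28.1% were called higher and 29.8% lower, and 17% were called higher by at least 2-fold. In CPM, scaled by the trimmed mean of M-values (TMM), 9 of the 10 genes had every MI library above every sham library, against 21.2% of tested genes, and Nlrp3 was the exception. The median log2 fold change was 1.31 for the 10 genes and 0.01 for all tested genes. By contrast with the shared direction, absolute levels spanned a wide range, as the plot of levels by library shows.

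**Figure D1:**
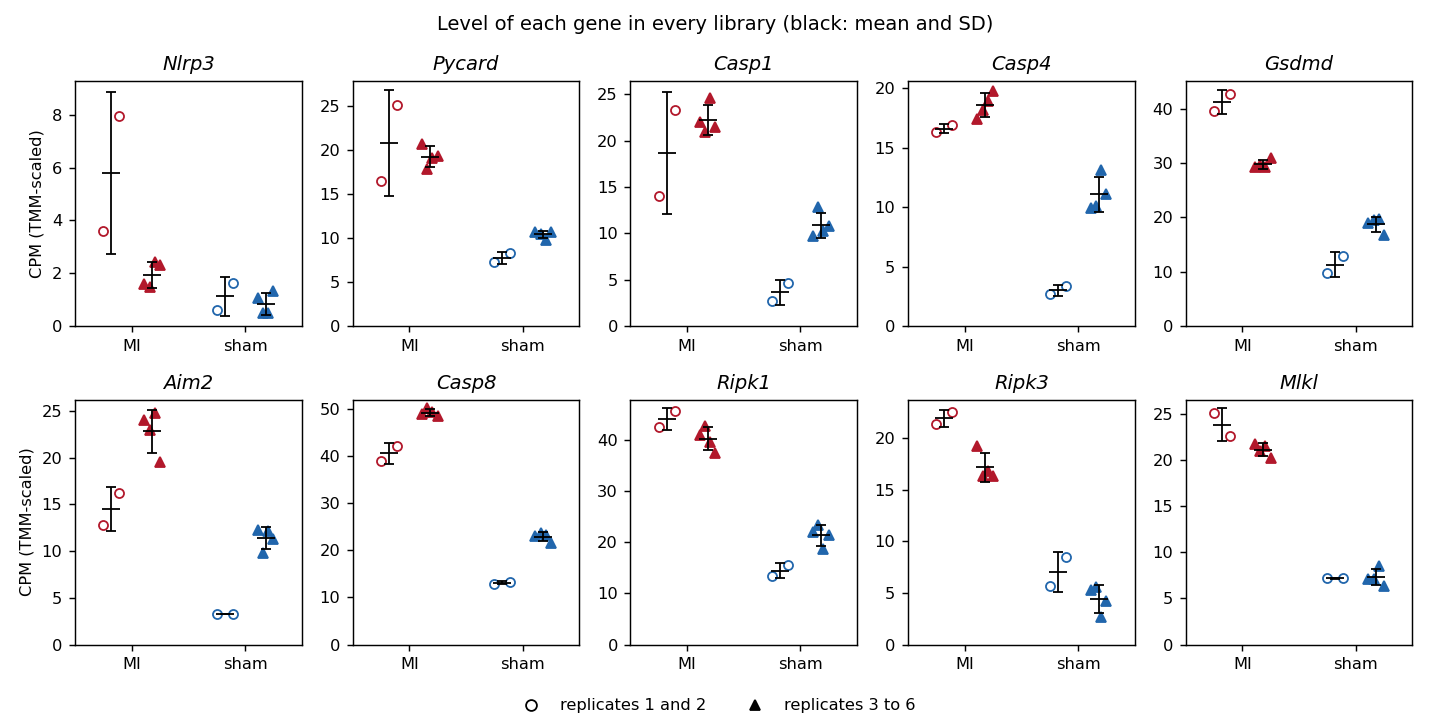
TMM-scaled CPM of each of the 10 genes in every library, with MI left of sham, circles for replicates 1 and 2 and triangles for replicates 3 to 6. Black bars give the mean and SD of each set. The MI libraries lie above the sham libraries in every panel except that of Nlrp3, where the MI libraries reach down to 1.48 CPM and the sham libraries up to 1.63 CPM.

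Nlrp3 (Entrez 216799, chr11:59541569-59566955, GRCm38, plus strand), the sensor of many forms of cell damage, was the least abundant of the genes. It had 3.61 and 7.95 CPM in MI replicates 1 and 2, and 1.57, 1.48, 2.43 and 2.30 CPM in MI replicates 3 to 6. Sham libraries had 0.609 and 1.63 CPM in replicates 1 and 2, and 1.05, 0.497, 0.478 and 1.33 CPM in replicates 3 to 6. MI replicate 2 stood far above the others, and the groups overlapped across sets but not within either set. Over 12 libraries the log2 fold change was 1.70 ± 0.38 (SE, 12 libraries, edgeR adjusted p = 0.0013), with adjusted p = 0.0266 when replicates 3 to 6 were counted once. The counts behind it were small, 24 to 172 in MI libraries and 4 to 22 in sham libraries. The call was lost without MI replicate 2 (log2 fold change 1.39, edgeR adjusted p = 0.0728 counted once), without sham replicate 1 (1.41, adjusted p = 0.0789) or without sham replicate 2 (1.76, adjusted p = 0.0711).

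Aim2 (Entrez 383619, chr1:173349547-173466040, plus strand), the sensor of double-stranded DNA in the cytosol, was higher in both sets. It had 12.8 and 16.2 CPM in MI replicates 1 and 2, and 24.0, 23.0, 24.8 and 19.6 CPM in MI replicates 3 to 6. Sham libraries had 3.27 and 3.26 CPM in replicates 1 and 2, and 12.3, 9.82, 12.2 and 11.3 CPM in replicates 3 to 6. No MI library fell below a sham library, although the lowest MI and the highest sham library, from different sets, lay close together. The log2 fold change over 12 libraries was 1.34 ± 0.18 (SE, edgeR adjusted p = 2.5e-05), and adjusted p was 0.0049 with replicates 3 to 6 counted once. The call was lost without the set as covariate (1.22, edgeR adjusted p = 0.0826 counted once). Its expected counts were fractional in all 12 libraries, so part of its reads was shared out among more than 1 place by the counting.

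Pycard (Entrez 66824, chr7:127991373-127993867, minus strand), the ASC adaptor, showed one of the smaller changes. It had 16.5 and 25.02 CPM in MI replicates 1 and 2, and 20.7, 17.8, 19.1 and 19.3 CPM in MI replicates 3 to 6. Sham libraries had 7.23 and 8.23 CPM in replicates 1 and 2, and 10.7, 10.4, 9.80 and 10.6 CPM in replicates 3 to 6. The groups did not overlap. Its log2 fold change was 1.07 ± 0.12 (SE, edgeR adjusted p = 7.4e-06), with adjusted p = 0.0068 with replicates 3 to 6 counted once. Of its exon bases, 12.8% lie antisense to the exons of Gm45205, and strandedness is not given in the sources used, so reads of the pair cannot be told apart there.

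Casp1 (Entrez 12362, chr9:5298517-5307281, plus strand) encodes the caspase that inflammasomes activate. It had 14.0 and 23.4 CPM in MI replicates 1 and 2, and 21.96, 21.0, 24.6 and 21.5 CPM in MI replicates 3 to 6. Sham libraries had 2.66 and 4.60 CPM in replicates 1 and 2, and 9.72, 12.8, 10.3 and 10.7 CPM in replicates 3 to 6. MI replicate 1 was low among the MI libraries, and the highest sham library stayed below it. This was a log2 fold change of 1.44 ± 0.23 (SE, edgeR adjusted p = 0.00012), with adjusted p = 0.0105 with replicates 3 to 6 counted once.

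Casp4 (Entrez 12363, chr9:5308849-5336791, plus strand), known in mice as caspase-11, senses bacterial lipopolysaccharide in the cytosol without a separate sensor. It had 16.4 and 16.9 CPM in MI replicates 1 and 2, and 17.4, 18.2, 18.9 and 19.8 CPM in MI replicates 3 to 6. Sham libraries had 2.66 and 3.34 CPM in replicates 1 and 2, and 9.95, 10.1, 13.1 and 11.1 CPM in replicates 3 to 6. The MI libraries of both sets lay close together, while the sham libraries of replicates 3 to 6 lay well above those of replicates 1 and 2, and MI and sham did not overlap. Over 12 libraries this gave a log2 fold change of 1.26 ± 0.25 (SE, edgeR adjusted p = 0.00055), with adjusted p = 0.0108 with replicates 3 to 6 counted once. The call was lost without sham replicate 1 (1.06, edgeR adjusted p = 0.0503 counted once) or sham replicate 2 (1.11, adjusted p = 0.0558), and without the set as covariate (1.11, adjusted p = 0.0702).

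Gsdmd (Entrez 69146, chr15:75862144-75867408, plus strand), the pore-forming substrate of both caspases, had 39.7 and 42.8 CPM in MI replicates 1 and 2, and 29.3, 29.6, 29.3 and 30.9 CPM in MI replicates 3 to 6. Sham libraries had 9.74 and 12.9 CPM in replicates 1 and 2, and 19.0, 19.5, 19.7 and 16.8 CPM in replicates 3 to 6. The sets moved apart in opposite ways, with MI lower and sham higher in replicates 3 to 6, and the groups did not overlap. The change was 1.07 ± 0.18 (SE, edgeR adjusted p = 0.00018), with adjusted p = 0.0081 with replicates 3 to 6 counted once.

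Casp8 (Entrez 12370, chr1:58795233-58847503, plus strand), the protease that starts death receptor apoptosis and holds necroptosis back, had 38.9 and 42.2 CPM in MI replicates 1 and 2, and 48.9, 50.1, 49.5 and 48.4 CPM in MI replicates 3 to 6. Sham libraries had 12.9 and 13.3 CPM in replicates 1 and 2, and 22.9, 23.7, 23.2 and 21.5 CPM in replicates 3 to 6. The groups were far apart in both sets. MI exceeded sham by a log2 fold change of 1.28 ± 0.09 (SE, edgeR adjusted p = 6.8e-08), with adjusted p = 0.0016 with replicates 3 to 6 counted once.

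Ripk1 (Entrez 19766, chr13:34002225-34035170, plus strand), the kinase downstream of the tumour necrosis factor receptor, had 42.6 and 45.7 CPM in MI replicates 1 and 2, and 41.1, 42.9, 39.7 and 37.6 CPM in MI replicates 3 to 6. Sham libraries had 13.4 and 15.5 CPM in replicates 1 and 2, and 22.01, 23.5, 18.6 and 21.4 CPM in replicates 3 to 6. MI levels were alike in the sets and above every sham library. On the log2 scale the change was 1.15 ± 0.12 (SE, edgeR adjusted p = 2.6e-06), with adjusted p = 0.0027 with replicates 3 to 6 counted once. Of its exon bases, 6.12% are shared on the same strand with other annotated exons and 2.89% lie antisense to them (Gm17084 and Serpinb6a), and its counts were fractional in all 12 libraries.

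Ripk3 (Entrez 56532, chr14:55784995-55788857, minus strand), the kinase that phosphorylates MLKL, had the largest log2 fold change of the 10 genes over 12 libraries. It had 21.4 and 22.5 CPM in MI replicates 1 and 2, and 19.2, 16.4, 16.8 and 16.3 CPM in MI replicates 3 to 6. Sham libraries had 5.71 and 8.45 CPM in replicates 1 and 2, and 5.27, 5.595, 2.63 and 4.22 CPM in replicates 3 to 6. The groups did not overlap, and sham replicate 5 was the lowest library. Over 12 libraries the log2 fold change was 1.83 ± 0.16 (SE, edgeR adjusted p = 5.8e-07), with adjusted p = 0.0018 with replicates 3 to 6 counted once. With those replicates counted once it was 1.72, below the values of Nlrp3 (1.94), Casp1 (1.86) and Casp4 (1.82).

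Mlkl (Entrez 74568, chr8:111311255-111338479, minus strand), the executioner of necroptosis, had 25.1 and 22.6 CPM in MI replicates 1 and 2, and 21.8, 21.0, 21.5 and 20.2 CPM in MI replicates 3 to 6. Sham libraries had 7.16 and 7.19 CPM in replicates 1 and 2, and 7.14, 7.09, 8.49 and 6.40 CPM in replicates 3 to 6. Levels in each group were alike in the sets, and MI stayed far above sham. Its log2 fold change was 1.60 ± 0.08 (SE, edgeR adjusted p = 4.8e-09), with adjusted p = 0.0011 with replicates 3 to 6 counted once. The expected counts were fractional in 11 of 12 libraries.

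Exact two-sided permutation tests over libraries on log2 CPM gave p = 0.00216 for 9 genes, the smallest p that 6 against 6 allows, and p = 0.00649 for Nlrp3. For the 9 genes this p follows from the lack of overlap given above, which 21.2% of tested genes shared, and adds nothing to it. These tests ignore the set, in which 2 against 2 cannot go below an exact p of 0.3333 and 4 against 4 not below 0.02857. Neither can 3 against 3, with replicates 3 to 6 counted once, go below 0.1.

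Within replicates 1 and 2, all 10 genes were higher in MI by edgeR's test, against 34.1% of tested genes, and within replicates 3 to 6 again all 10, against 42.3%. The MI libraries lay above the sham libraries of the same set for all 10 genes in each set, where 44.7% of genes did so in replicates 1 and 2 and 36.9% in replicates 3 to 6. In replicates 1 and 2 the fold change was 5.46-fold for Casp4, 5.07-fold for Casp1, 5.06-fold for Nlrp3 and 4.38-fold for Aim2, and the smallest was 2.65-fold for Pycard. In replicates 3 to 6 it was 4.01-fold for Ripk3, 2.996-fold for Mlkl and 2.37-fold for Nlrp3, and the smallest was 1.64-fold for Gsdmd. Casp4, Casp1 and Nlrp3 had the highest values in the one set, and Ripk3 and Mlkl in the other. The call of Nlrp3 within replicates 1 and 2 was lost without sham replicate 1 (log2 fold change 1.79, edgeR adjusted p = 0.0775). The p-values of replicates 3 to 6 rest on libraries that lie nearly as close as repeats of 1 sample would, and whether they cover the spread between animals is not known.

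**Figure D2:**
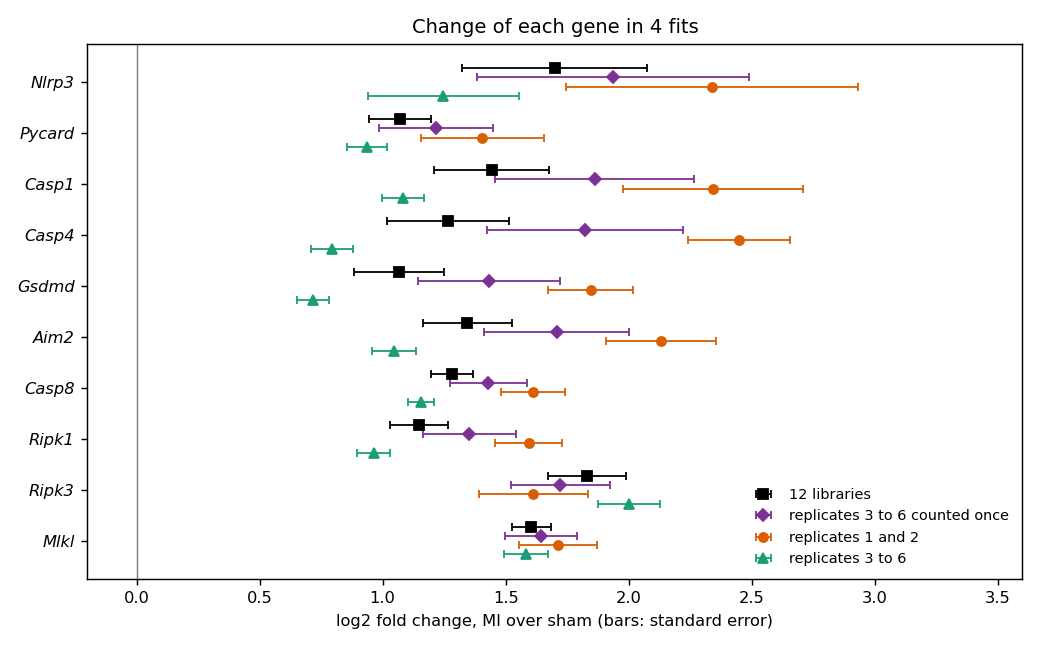
Log2 fold change of MI over sham for each gene in 4 fits, with bars of 1 standard error: all 12 libraries, replicates 3 to 6 counted once, replicates 1 and 2 alone, and replicates 3 to 6 alone. All values lie above 0, and the values of the sets lie farthest apart for Casp4 (2.45 in replicates 1 and 2 and 0.79 in replicates 3 to 6).

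The fold change was larger in replicates 1 and 2 than in replicates 3 to 6 for 9 of the 10 genes, all but Ripk3. Among 3780 genes called higher by both tests, 77.1% had the larger fold change in replicates 1 and 2. The interaction of set and group passed edgeR's 12-library test for 7 genes, against 55% of tested genes, and passed both tests for 1, Casp4, against 10.5%. For Casp4 the MI effect in replicates 3 to 6 minus that in replicates 1 and 2 was -1.72 ± 0.19 on the log2 scale (SE, edgeR adjusted p = 3.9e-06, and 0.0304 with replicates 3 to 6 counted once). This call was lost without sham replicate 1 (-1.56, edgeR adjusted p = 0.132 counted once) or sham replicate 2 (-1.89, adjusted p = 0.120). Without MI replicate 1, Casp1, Gsdmd and Aim2 passed as well (edgeR adjusted p = 0.0361, 0.0306 and 0.0301 counted once), and without MI replicate 2, Gsdmd did (edgeR adjusted p = 0.0431). With all libraries the interactions of Gsdmd (-1.19, edgeR adjusted p = 0.0531 counted once), Aim2 (-1.15, adjusted p = 0.0793) and Casp1 (-1.33, adjusted p = 0.183) missed the threshold. Ripk3 (0.33 ± 0.27, SE), Mlkl (-0.19 ± 0.15, SE) and Nlrp3 (-1.15 ± 0.69, SE) passed neither test (edgeR adjusted p = 0.3332, 0.283 and 0.176 over 12 libraries).

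Levels also differed between the sets within each group. Sham replicates 3 to 6 all exceeded sham replicates 1 and 2 for 7 genes, Pycard, Casp1, Casp4, Gsdmd, Aim2, Casp8 and Ripk1, where 39.3% of tested genes did so. MI replicates 3 to 6 all exceeded MI replicates 1 and 2 for 3 genes, Casp4, Aim2 and Casp8, where 38.6% of tested genes did so. Casp4 averaged 18.6 ± 0.99 CPM in MI replicates 3 to 6 and 16.6 ± 0.36 CPM in MI replicates 1 and 2 (SD, n = 4 and 2). Its sham libraries averaged 11.1 ± 1.48 CPM in replicates 3 to 6 (SD, n = 4), against 2.66 and 3.34 CPM in replicates 1 and 2. Ripk3 went the other way in sham, with 4.43 ± 1.33 CPM in replicates 3 to 6 and 7.08 ± 1.94 CPM in replicates 1 and 2, where every library of replicates 3 to 6 was below both libraries of replicates 1 and 2.

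Levels of different genes can be compared per transcript length, for which the authors' TPM values, transcript abundance scaled for length and depth, were used. TPM lacks the TMM scaling of the CPM values and sets MI further above sham than CPM does. In replicates 1 and 2, for example, Gsdmd averaged 41.2 CPM in MI and 11.3 CPM in sham, beside the TPM values below. By mean TPM, Gsdmd and Casp8 held the top places in both groups and both sets, and Nlrp3 the lowest. In sham replicates 3 to 6, though, Casp8 (10.99 to 12.68 TPM) overlapped Casp4 (9.57 to 12.55 TPM). In replicates 1 and 2, Gsdmd averaged 54.4 ± 4.69 TPM in MI and 9.40 ± 1.57 TPM in sham, and Casp8 averaged 41.1 ± 4.002 TPM in MI and 8.56 ± 0.01 TPM in sham (SD, n = 2 each). In replicates 3 to 6, Casp8 averaged 41.2 ± 0.82 TPM in MI and 12.045 ± 0.73 TPM in sham, and Gsdmd averaged 34.0 ± 0.84 TPM in MI and 13.6 ± 0.92 TPM in sham (SD, n = 4 each). Between the extremes several neighbours in the order could not be told apart by their ranges, as from Casp4 through Casp1, Ripk3, Mlkl and Pycard to Ripk1 in MI replicates 1 and 2. Nlrp3 averaged 3.44 ± 1.92 TPM in MI and 0.410 ± 0.25 TPM in sham in replicates 1 and 2 (SD, n = 2 each), and 0.988 ± 0.26 TPM in MI and 0.280 ± 0.14 TPM in sham in replicates 3 to 6 (SD, n = 4 each). Summed over the 10 genes, TPM ran from 245 to 296 in MI and from 44.1 to 51.5 in sham in replicates 1 and 2. In replicates 3 to 6 the sum ran from 219 to 229 in MI and from 67.7 to 73.3 in sham.

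**Figure D3:**
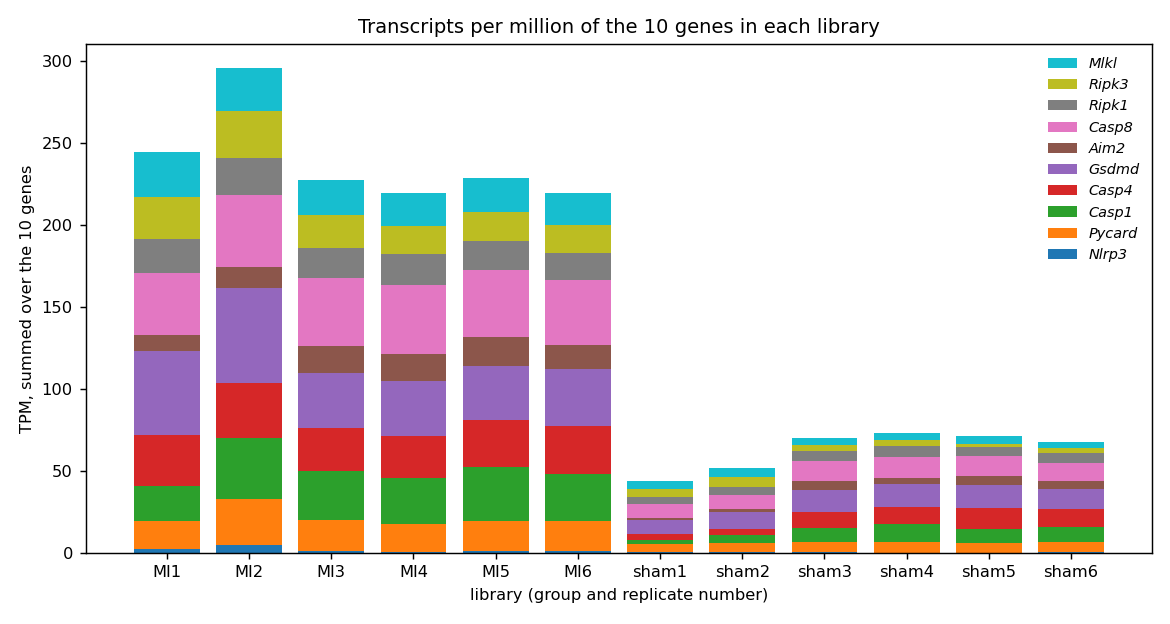
Summed TPM of the 10 genes in each library, stacked by gene, with the 6 MI libraries left of the 6 sham libraries. The bars run from 219 to 296 TPM in MI and from 44.1 to 73.3 TPM in sham, and the thin lowest band of every bar is Nlrp3. TPM lacks the TMM scaling of the CPM values, so MI stands further above sham here than in CPM.

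The balance between genes of the necroptosis arm differed between the sets in both groups. The ratio of Ripk3 to Ripk1 in TPM was 0.930 to 1.13 in MI and 0.346 to 0.598 in sham in replicates 3 to 6, where the groups did not overlap. In replicates 1 and 2 it was 1.26 in both MI libraries and 1.10 and 1.39 in the sham libraries, where they did. The ratio of Casp8 to Ripk3, the brake against the kinase, was 2.02 to 2.42 in MI and 3.27 to 6.85 in sham in replicates 3 to 6, and 1.49 and 1.54 in MI and 1.32 and 1.86 in sham in replicates 1 and 2. On the pyroptosis side, the ratio of Gsdmd to Casp1 was below every sham value in MI replicates 3 to 6, at 1.02 to 1.23 in MI and 1.29 to 1.66 in sham, while replicates 1 and 2 gave 1.55 to 2.40 in MI and 2.38 to 3.10 in sham. These ratios were not tested.

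Many of the 10 genes are known to be expressed in macrophages, and macrophage markers rose with them. All 13 macrophage and monocyte markers were higher in MI by both tests, with a median log2 fold change of 2.30. They summed to 4372 and 6562 CPM in MI and 727 and 787 CPM in sham in replicates 1 and 2, and to 3846 to 3999 CPM in MI and 1183 to 1229 CPM in sham in replicates 3 to 6. Over 12 libraries the marker median lies above the value of each of the 10 genes, but within replicates 3 to 6 it was 1.81, below the 2.003 of Ripk3. Set against this marker sum, the level in MI was below that in sham, without overlap, for 8 genes in replicates 1 and 2, where 90.3% of tested genes did so, and for 7 in replicates 3 to 6, where 87.2% did. Casp8 was 0.643% to 0.890% of the marker sum in MI and 1.69% to 1.77% in sham in replicates 1 and 2, and 1.21% to 1.30% in MI and 1.75% to 2.01% in sham in replicates 3 to 6. Nlrp3 overlapped in both sets, at 0.0826% to 0.121% in MI and 0.0838% to 0.207% in sham in replicates 1 and 2. Casp4 overlapped in replicates 1 and 2, and Ripk3 and Mlkl overlapped in replicates 3 to 6. Lyz2 was the largest part of the marker sum in both groups and sets, so the ratios lean on this 1 gene. Summed over libraries, Lyz2 had 123636 counts in MI replicates 1 and 2 and 164968 in MI replicates 3 to 6. C1qa, next in MI, had 24454 and 15311. In sham, Lyz2 had 6826 and 18773 counts in the same sets, and C1qa had 3539 and 4390. The part of macrophage number in the change of the 10 genes was not tested.

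**Figure D4:**
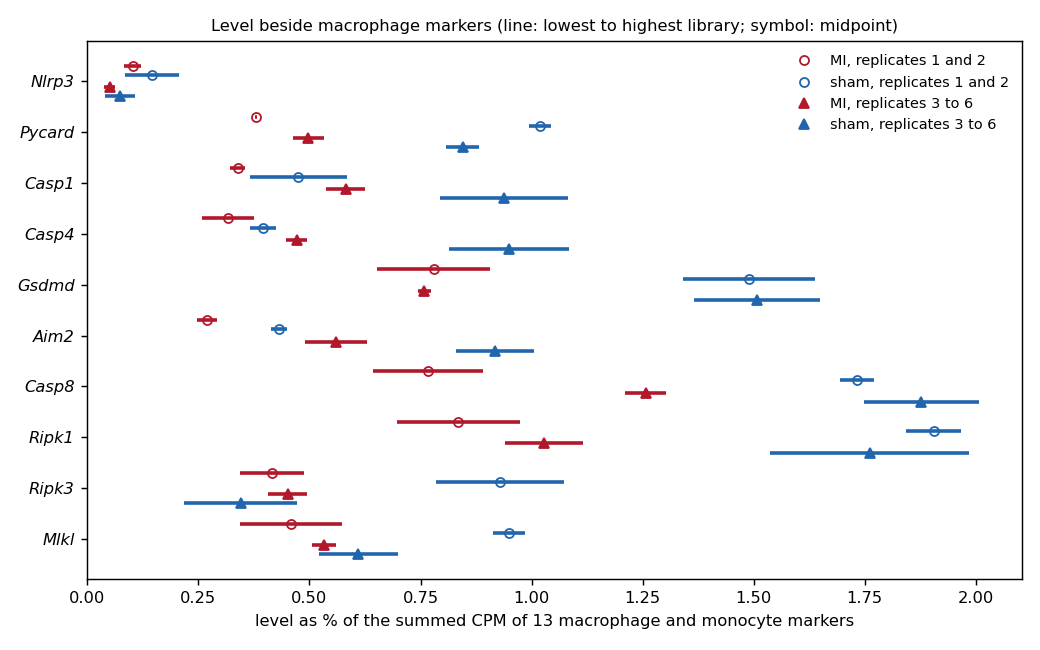
Level of each gene as a percentage of the summed CPM of 13 macrophage and monocyte markers, with MI above sham in each set. Lines run from the lowest to the highest library and symbols mark the midpoint. For Casp8, Ripk1, Gsdmd, Pycard, Casp1 and Aim2 the MI lines lie left of the sham lines of the same set in both sets.

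Markers of other cell types are set beside all genes, of which 28.1% were called higher and 29.8% lower. The 9 neutrophil markers summed to 30.2 and 73.4 CPM in MI and 4.03 and 4.37 CPM in sham in replicates 1 and 2, and to 49.7 to 52.3 CPM in MI and 26.8 to 29.0 CPM in sham in replicates 3 to 6. Of the 6 neutrophil markers tested, 3 were higher by both tests. Counts of single markers are given summed over the libraries of a set and not scaled for depth. In each set the MI libraries were deeper than the sham libraries, so these counts overstate MI against sham. The most abundant, Csf3r, had 1448 counts in MI and 47.9 in sham in replicates 1 and 2. In replicates 3 to 6 it had 1394 counts in MI and 279 in sham. S100a9 had 259 counts in MI and 20 in sham in replicates 1 and 2, and 767 in MI and 329 in sham in replicates 3 to 6. The defining marker Ly6g had 1 count in MI and 0 in sham in replicates 1 and 2, and 4.96 in MI and 2 in sham in replicates 3 to 6. Of 7 fibroblast markers 6 were higher, and their summed level was 54528 and 71282 CPM in MI and 3174 and 3559 CPM in sham in replicates 1 and 2, and 24087 to 24318 CPM in MI and 2940 to 3091 CPM in sham in replicates 3 to 6. All 10 cardiomyocyte markers were present in every group and lower in MI. They summed to 6449 and 10401 CPM in MI and 112937 and 112974 CPM in sham in replicates 1 and 2, and to 32238 to 32902 CPM in MI and 105529 to 107708 CPM in sham in replicates 3 to 6. Of the tested markers of T and NK cells, 3 of 6 were higher, and 1 of 5 dendritic cell markers was. None of 3 B cell and 5 erythroid markers was called, and 2 of 7 endothelial markers were lower. The dendritic and endothelial shares were no larger than those of all genes. The summed level of the dendritic cell markers overlapped between MI and sham in both sets. The part of these cells in the levels of the 10 genes was not tested.

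Related genes from 7 lists around the same pathways were read with the same tests. These lists hold 87 genes of the table, of which 81 were tested over 12 libraries. Of the 81, 39 were higher, 18 were lower and 24 were not called, beside 28.1% higher and 29.8% lower among all genes, and their median log2 fold change was 0.43. Scaled by library size alone, which moves the median of all genes to 0.42, 52 were higher and 7 lower. Without sham replicate 1 or 2, 23 or 25 were called higher, and 10 lower in either case. Without MI replicate 1 or 2, 7 or 11 were called lower.

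Among 19 other inflammasome sensors and regulators, 14 were higher and 5 lower, with a median log2 fold change of 1.46. Mefv, which encodes the sensor pyrin, had 2.31, 4.12, 4.78, 5.72, 5.78 and 5.76 CPM in MI replicates 1 to 6, and between 0 and 0.239 CPM in sham libraries, with 6 counts over all sham libraries. Panx1, a channel that releases ATP, had 37.1, 37.2, 26.3, 27.5, 28.5 and 24.5 CPM in MI and 3.88, 4.74, 4.21, 3.73, 2.87 and 4.10 CPM in sham, a log2 fold change of 2.94 ± 0.10 (SE, edgeR adjusted p = 2.5e-10). Both genes were separated by group without overlap. Serpinb1a, a protease inhibitor that restrains inflammatory caspases, rose by 3.16 ± 0.09, and Gbp2, an interferon-induced GTPase, by 1.46 ± 0.09 (log2, SE, edgeR adjusted p = 6.0e-11 and 2.5e-08). Txnip, which binds NLRP3 under oxidative stress, fell by 0.78 ± 0.09 (log2, SE, edgeR adjusted p = 8.8e-06), a call lost with library size alone (-0.37, adjusted p = 0.0596 counted once) and without MI replicate 1 (-0.69, adjusted p = 0.0638). Without sham replicate 1 or 2, 9 genes of this list were called higher, without MI replicate 1, 2 were called lower, and with library size alone 3 were.

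The list of interleukin 1 family products and receptors had 8 of 10 tested genes higher and none lower. Its median log2 fold change was 1.77. The 8 include the receptor genes Il1r1, Il1rap, Il18r1 and Il18rap. Il1b and Il18, the cytokines that caspase-1 matures, were chosen after their values were seen. Il1b averaged 8.03 CPM in MI and 1.60 CPM in sham, or 4.47 log2 higher within replicates 1 and 2 and 1.56 log2 higher within replicates 3 to 6. Il18 averaged 5.05 CPM in MI and 1.57 CPM in sham, or 2.97 and 1.25 log2 higher within the same sets. Il1rn, the receptor antagonist, had 11.1, 66.9, 12.5, 13.8, 12.5 and 12.7 CPM in MI replicates 1 to 6, with MI replicate 2 far above the rest, and 0.228 to 0.717 CPM in sham. Il33, an alarmin, changed by 2.17 ± 0.31, the shared receptor chain Il1rap by 1.45 ± 0.13 and Il18r1 by 1.91 ± 0.29 (log2, SE, each called higher by both edgeR tests). The change of Il33 was 12.2-fold in replicates 1 and 2 and 2.89-fold in replicates 3 to 6. This difference between the sets passed both interaction tests (edgeR adjusted p = 2.1e-08, and 0.0154 with replicates 3 to 6 counted once). The call of Il18r1 was lost without sham replicate 1 or 2 (1.77 in either case, edgeR adjusted p = 0.0533 and 0.0503 counted once). Il18bp, which neutralises interleukin 18, was not called (0.74 ± 0.17, SE, edgeR adjusted p = 0.182 counted once) but was with library size alone (1.16, adjusted p = 0.02864). Without sham replicate 1, 4 genes of this list were called higher, and without sham replicate 2, 5 were.

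Of 17 other genes of necroptosis and death receptor signalling, 9 were higher, 5 were lower and 3 were not called, with a median of 0.38. Zbp1, a nucleic acid sensor that engages RIPK3, had 66.3, 43.8, 23.8, 22.9, 23.1 and 22.8 CPM in MI replicates 1 to 6 and 1.67, 2.59, 2.93, 2.74, 3.35 and 1.57 CPM in sham replicates 1 to 6. Its groups lay far apart, with a log2 fold change of 3.72 ± 0.27 (SE, edgeR adjusted p = 1.5e-07), above those of the 10 genes. Tlr4 rose by 0.78 ± 0.06 and the receptor Tnfrsf1a by 0.85 ± 0.08, while Mapkapk2, a kinase that phosphorylates RIPK1, fell by 1.23 ± 0.12 (log2, SE, each called by both edgeR tests). Without the set as covariate Tlr4 was not called (edgeR adjusted p = 0.125 counted once). With library size alone, 3 genes of this list were lower, and the same count was lower without MI replicate 1, MI replicate 2, sham replicate 1 or sham replicate 2.

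Of 16 ubiquitin and kinase regulators of cell death, the ubiquitin list, 3 were higher, 3 were lower and 10 were not called. The median was -0.02. Among all genes 28.1% were called higher and 29.8% lower. Tnfaip3, which encodes the ubiquitin-editing enzyme A20, rose by 1.20 ± 0.20 and Birc3 by 0.78 ± 0.13, while Ikbkg fell by 0.41 ± 0.06 and Map3k7 by 0.29 ± 0.04 (log2, SE, each called by both edgeR tests). Tab2 was not called (-0.17 ± 0.05, SE, edgeR adjusted p = 0.242 counted once). Among 10 genes of ESCRT membrane repair, which sheds damaged membrane, 5 were lower, 1 was higher and 4 were not called. Vps4a fell by 0.75 ± 0.07, Tsg101 by 0.58 ± 0.08 and Chmp2a by 0.40 ± 0.05, while Vps4b rose by 0.44 ± 0.07 (log2, SE, each called by both edgeR tests), and Chmp4b was not called (-0.06 ± 0.08, SE, edgeR adjusted p = 0.730 counted once). The direction of both lists depends on scaling: with library size alone, 8 brake genes were higher and none lower, and 4 ESCRT genes were higher and 1 lower. Under that scaling Ikbkg stood at -0.0034, Map3k7 at 0.12, Tsg101 at -0.17 and Chmp2a at 0.010, none of them called, while Chmp4b was called higher at 0.35 (log2, edgeR). Without the set as covariate Birc3, Ikbkg, Map3k7, Tsg101, Chmp2a and Vps4b lost their calls (edgeR adjusted p between 0.0722 and 0.379 counted once). Without sham replicate 1 or 2, no gene of the ubiquitin list was called in either direction and 2 ESCRT genes were lower. Without MI replicate 1, no gene of the ubiquitin list and 2 ESCRT genes were lower. Without MI replicate 2, 1 gene of the ubiquitin list and 2 ESCRT genes were lower.

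Among genes of gasdermins and membrane rupture, Ninj1, which ruptures the membrane after pores have formed, was not called (-0.39 ± 0.09, SE, edgeR adjusted p = 0.195 counted once), nor was Gsdme (0.75 ± 0.25, SE, edgeR adjusted p = 0.303 counted once), which limma on log2(FPKM + 0.1) called higher (1.53, adjusted p = 0.0044 counted once). Of 5 genes of DNA sensing beside Aim2, 3 were higher and none lower. Ifi202b rose by 2.68 ± 0.21, Ifi204 by 1.82 ± 0.31 and Cgas, which encodes the DNA-activated cGAMP synthase, by 1.60 ± 0.18 (log2, SE, each called by both edgeR tests), while Ifi203 was not called (0.65 ± 0.26, SE, edgeR adjusted p = 0.0517 counted once) but was with library size alone (1.06, adjusted p = 0.0162).

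**Figure D5:**
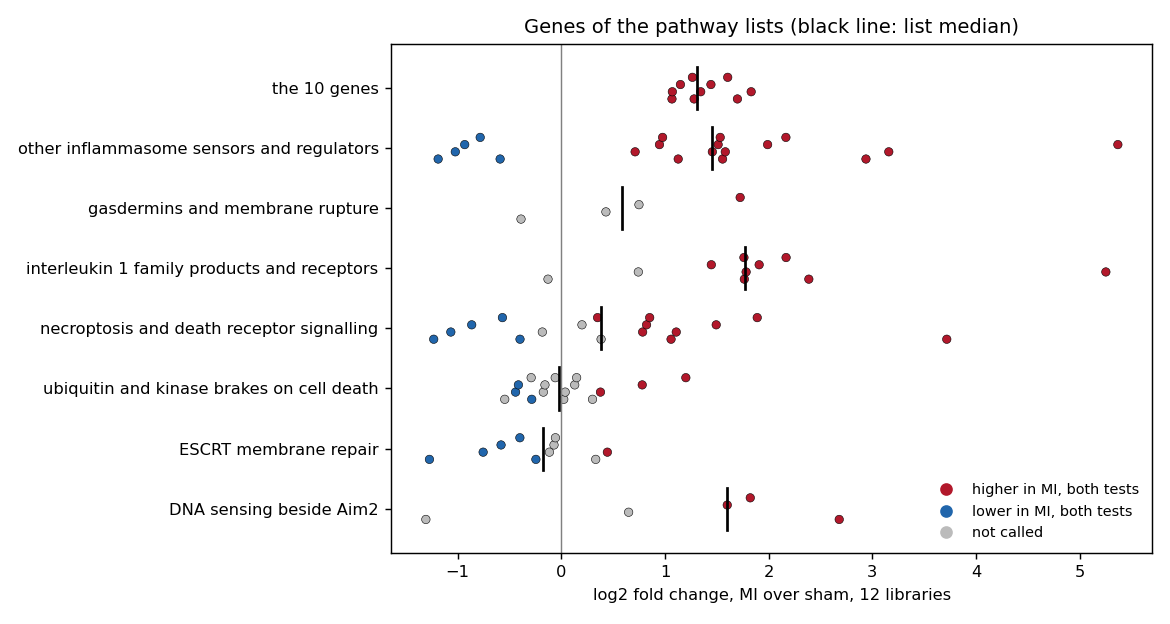
Log2 fold change of MI over sham over 12 libraries for each tested gene of the lists, coloured by its call, with a black line at the list median. All 10 genes of the first line lie right of 0 with a median of 1.31. The medians of the ubiquitin and kinase list (-0.02) and of ESCRT repair (-0.18) lie near or left of 0.

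Genes outside the lists whose log2 CPM ran most alike over the 12 libraries are given as a description, since all points share the split of the groups and sets. Nlrp3 had the loosest neighbours, led by Zap70 (Pearson r = 0.949, 12 libraries) and Pglyrp1 (r = 0.944). The nearest were Lyn for Pycard (r = 0.993), Hpgds for Casp1 (r = 0.988), Jag1 for Casp4 (r = 0.993), Foxp2 for Gsdmd (r = 0.990) and Wfdc17 for Aim2 (r = 0.994). On the necroptosis side they were Tram1 for Casp8 (r = 0.997), 1600012H06Rik for Ripk1 (r = 0.993), Etv4 for Ripk3 (r = 0.986) and Col11a1 for Mlkl (r = 0.996). The next neighbours of Mlkl were Map1b (r = 0.995) and Sfrp2 (r = 0.994).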

How the data were processed

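RNA of mouse left ventricles was sequenced in 6 MI and 6 sham libraries. Per the labels' protocols, mRNA was enriched with oligo(dT). Per the submitters' processing notes, reads were placed on GRCm38, and for replicates 3 to 6 Bowtie2, RSEM and DESeq2 are named, without versions or roles. The authors deposited expected counts, which are unscaled RSEM-type estimates, with TPM and FPKM values, which are scaled for gene length and depth. Of 18050 genes, 425 blank in replicates 1 and 2 were left out. A further deposited FPKM table covers replicates 1 and 2, and of 40 values of the 10 genes 4 agree within 0.01, with a largest difference of 1.93. It was not used further.

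Expected counts were rounded and tested in edgeR 4.0.16 (R 4.3.3) with the quasi-likelihood F test, TMM scaling, filterByExpr and the set as covariate, and p-values were adjusted over all genes. A standard error is the log2 fold change divided by the root of its F statistic. Replicates 3 to 6 were also summed and counted once, since they lie close together. Same-numbered MI and sham libraries correlated between -0.0552 and 0.0609 in their deviations from the mean of their group and set. In replicates 1 and 2 these deviations mirror each other, so both numbers give the same value, and replicates 3 to 6 varied little. These values cannot exclude a pairing by number, which the main fits did not use. The tests were tested on simulated data. Alternatives used DESeq2 1.42.0, limma 3.58.1 on log2(FPKM + pseudocount) with pseudocounts of 1, 0.1 and 0.01, other scaling, filters of none or 10 counts, an adjusted p under 0.01, and each library left out. Exact permutation tests used SciPy 1.17.1. The 10 genes, the lists and the tests were chosen with earlier results of these data known. Named genes are the 10, from each list the 4 with the smallest adjusted p and the most abundant one not called or against the majority, the 3 nearest patterns per gene, and the 2 most abundant markers per cell type. Some results of the list of gasdermins and membrane rupture are not reported here. Depth limits precision for Nlrp3 most, where counting alone gives a coefficient of variation of 37.8% in sham replicates 3 to 6.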

Additional observations from a re-analysis of the deposited data

Results flagged for a closer look

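Nlrp3 in MI replicate 2 had 7.95 CPM, the highest of 6 MI libraries, and the next was 3.61 CPM. Casp1 in MI replicate 1 had 14.0 CPM, the lowest of 6 MI libraries, and the next was 21.0 CPM. The gap to the nearest library took 0.671 of the group's range for Nlrp3 and 0.659 for Casp1. Of 20 groups of 6 libraries examined, chance alone would single out about 1 in 20 for such a gap if the 6 libraries were alike and independent, but each group joins 2 sets of unlike spread, so that rate may not hold here. The MI effect on Casp4 differed between the sets, by -1.72 on the log2 scale (replicates 3 to 6 minus replicates 1 and 2), in a test of the difference itself.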

How the results depend on the processing

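All 10 genes had a positive log2 fold change under all 25 alternatives, and all 10 were called higher with DESeq2 or limma, with either scaling, under either filter and with the replicate block (10). Leaving out each library, 8 to 10 were called higher over 12 libraries, 9 to 10 within replicates 1 and 2 and 10 within replicates 3 to 6. Calls lost were those of Nlrp3, Casp4 and Casp1 at an adjusted p under 0.01, of Casp4 and Aim2 without the covariate, and those of Nlrp3 and Casp4 named above. The lowest value was 0.63, for Nlrp3 with limma on log2(FPKM + 1), a scale that understates low genes.

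The number of genes whose MI effect differed between the sets was 2 with DESeq2's Wald test, 0 at an adjusted p under 0.01 and 0 to 4 leaving out each library. Related genes called lower numbered 7 with library size alone, 9 at an adjusted p under 0.01, 9 with each limma setting, 5 without the covariate, 14 with the replicate block and 7 to 18 leaving out each library. Those called higher numbered 24 at an adjusted p under 0.01, 34 with the block and 23 to 41 leaving out each library. Library size alone moved the calls over all genes in the 12-library test to 7779 higher and 3208 lower, from 5180 higher and 5186 lower with TMM.

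The sign changed for 5 of the named related genes. With library size alone, Ninj1 became 0.022, Map3k7 0.12, Tab2 0.24, Chmp2a 0.010 and Chmp4b 0.35. With limma at pseudocounts of 1, 0.1 and 0.01, Ninj1 became 0.011, 0.011 and 0.011, Map3k7 0.11, 0.12 and 0.12, Tab2 0.22, 0.22 and 0.23, Chmp2a 0.0069, 0.0070 and 0.0070, and Chmp4b 0.34, 0.35 and 0.35. Counting replicates 3 to 6 once turned Chmp4b to 0.069 and, of the related genes not named above, Il1rl1 to 0.076, Fas to 0.36, Ifi205 to 0.45 and Otulin to -0.026, none of them called. Library size and FPKM lack TMM's correction, and the median of all genes then lay at 0.30 to 0.42.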
